A study of Mus musculus with 6 samples.

Results

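The genes described here are 35 genes of amino acid transport, glutamine and serine metabolism, one-carbon metabolism and the ATF4 stress response, among the 27179 gene numbers in the deposited count table. They were given as a list of symbols, and all 35 matched a gene number. RNA was measured in transgenic CD8+ T cells of gBT-I mice, whose T cell receptor recognizes a glycoprotein B peptide of herpes simplex virus. Spleen cells of mice kept under SPF conditions were activated in vitro with the peptide gB498-505 and LPS, were split and given IL-2 on days 2 to 5, and were harvested on day 6. The 3 butyrate libraries came from cultures that also received butyrate from day 3, and the 3 control libraries from cultures that did not. Neither the dose of butyrate nor the number of mice is stated in the labels, all cultures began from unsorted spleen cells, and every cell carrying the transgene has the same receptor, so the groups model a single antigen specificity.

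Activated T cells take up amino acids through membrane carriers and use them for protein, nucleotide and glutathione synthesis. Serine and glycine feed one-carbon units into folate, which runs through parallel sets of enzymes in the cytosol and in mitochondria and supplies carbon for purines and thymidylate. When amino acids run short or proteins misfold, kinases phosphorylate the initiation factor eIF2, translation of the transcription factor ATF4 rises, and ATF4 switches on genes for amino acid synthesis, carriers and stress regulators. ATF4 is controlled largely at translation, so its mRNA level is not a measure of its activity.

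Library totals ran from 5383380 to 6244350 counts, so that 3 counts, taken as the upper limit for a gene with a count of 0, equal 0.480 to 0.557 CPM, the count set to a library of equal size. Values below are CPM scaled by TMM, a normalization across libraries, and are given per library for replicates 1, 2 and 3 of each group. A gene is called higher or lower where edgeR's quasi-likelihood test gave an adjusted p under 0.05 over all 11740 genes tested. In bulk RNA, fewer cells of a type and less RNA per cell cannot be told apart. Of 10 T cell markers, 3 were called lower and 0 higher, where 22.5% of all tested genes were lower and 23.5% higher. The summed level of these markers ran from 5813 to 7263 CPM with butyrate and from 6221 to 6880 CPM in control. Markers of other spleen cells were also measured. Summed levels of 10 macrophage and dendritic cell markers were 87.3 to 109 CPM with butyrate and 29.5 to 93.0 CPM in control, with 1 of 6 tested called higher. The called gene was Itgam, with 51.0, 48.0 and 33.3 CPM with butyrate and 4.68, 3.34 and 4.22 CPM in control. The other tested markers of that list were not called. The 4 NK cell markers summed to 8.88 to 12.4 CPM with butyrate and 2.34 to 5.19 CPM in control (1 of 1 tested higher), the 6 granulocyte markers to 3.51 to 8.13 and 0 to 0.973 CPM (1 of 1 higher), and the 5 erythroid markers to 0.860 to 24.6 and 0.162 to 0.360 CPM (0 tested). The called genes were Klrb1c for NK cells and Cxcr2 for granulocytes, and each made up most of its list's sum with butyrate. Of 8 B cell markers, which summed to 158 to 459 CPM with butyrate and 454 to 775 CPM in control, 1 of 3 tested was higher, and Pax5 was at 0 in all libraries. Most of that sum was Ighm, the immunoglobulin mu chain gene, with 436, 442 and 144 CPM with butyrate and 759, 643 and 434 CPM in control (adjusted p = 0.0955). The called B cell marker was Cd22, with 6.29, 3.61 and 2.22 CPM with butyrate and 0.720, 0.556 and 0.811 CPM in control. The 3 CD4 T cell markers summed to 7.77 to 11.1 CPM with butyrate and 5.22 to 10.4 CPM in control, with 1 of 2 tested higher. The called gene was Cd4, with 3.88, 4.47 and 5.54 CPM with butyrate and 0.180, 0.186 and 1.46 CPM in control (adjusted p = 0.00322). Cd40lg was not called. The part of these cells in the results below was not tested.

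Butyrate was followed by changes in single steps of amino acid and one-carbon metabolism, with calls in both directions among the 35 genes. A shift of the list as a whole was not tested. The glutaminase gene Gls2, the alanine aminotransferase gene Gpt2, the proline synthesis gene Pycr1 and the cytosolic serine hydroxymethyltransferase gene Shmt1 were higher by at least 2-fold. The mitochondrial formate gene Mthfd1l and the glutamine carrier genes Slc38a1 and Slc38a2 were lower. The expression of Atf4 and of most stress genes on the list did not pass the test. Of the 35 genes, 33 passed the filter on low counts, and of these 11 were called higher, 4 lower and 18 were not called. The called share was 45.5% of the tested members, against 45.9% of all tested genes. Higher members were 11 of 33, where 23.5% of all tested genes were higher, and lower members 4 of 33, where 22.5% were lower. At least 2-fold higher were 4 of 33 members against 10.6% of all tested genes, and at least 2-fold lower 0 of 33 against 3.33%. The median log2 fold change was 0.12 over the 33 members and 0.0034 over all tested genes. With upper quartile scaling, higher genes made up 61.8% of all calls, against 51.1% with TMM, and the members' counts were 12 higher and 3 lower. The libraries of the groups did not overlap for 18 of 33 members, and for 57.1% of all tested genes. The share of calls among the members was therefore near that of the transcriptome as a whole, and what follows concerns which genes they were.

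**Figure D1:**
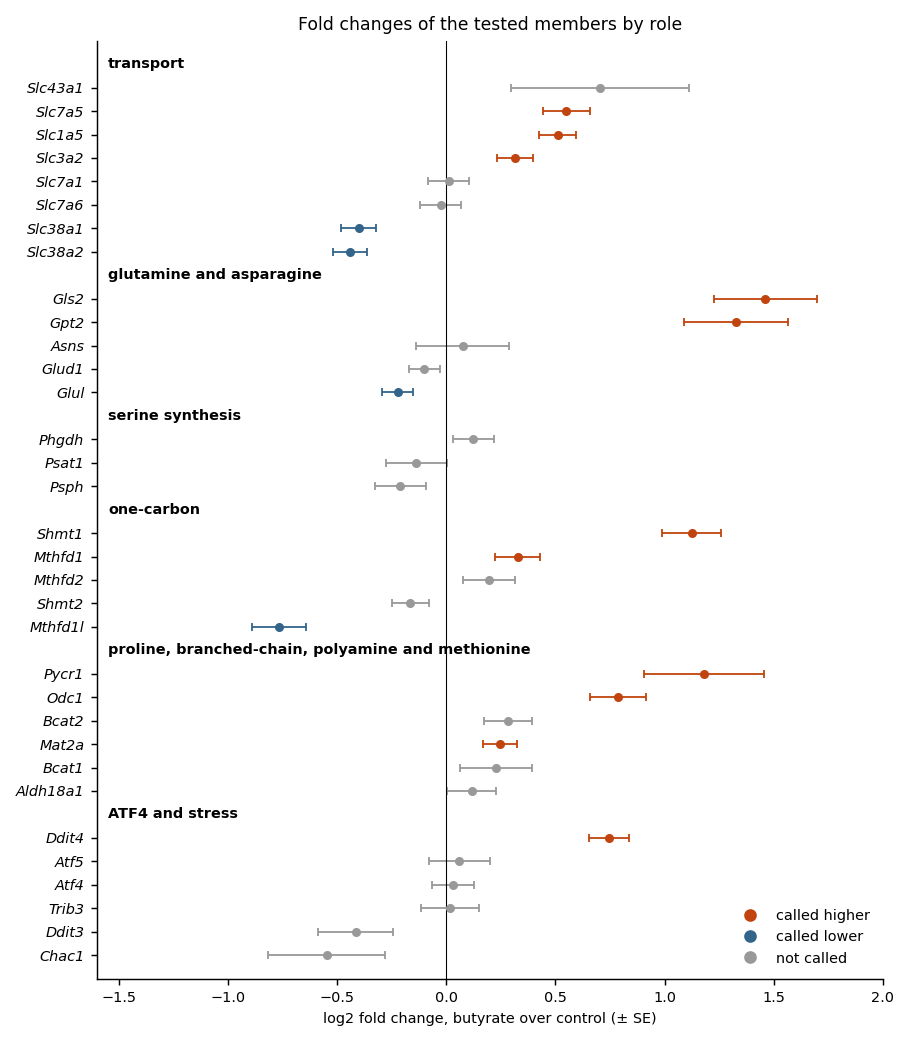
Log2 fold change of butyrate over control for the 33 tested members, grouped by role (points, edgeR estimate; bars, standard error; 3 libraries per group). Orange points were called higher, blue points lower, and grey points were not called. Gls2, Gpt2, Pycr1 and Shmt1 lie above 1, and Mthfd1l has the lowest value, -0.76.

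Among the amino acid carriers, Slc7a5, Slc3a2 and Slc1a5 were called higher and Slc38a1 and Slc38a2 lower. Slc7a5 (gene 20539, chr8:121881146-121907686 of GRCm38.p6) encodes LAT1, the carrier of leucine and other large neutral amino acids. It stood at 575, 601 and 654 CPM in the butyrate libraries, against 364, 468 and 419 CPM in the control libraries. Every butyrate library lay above every control library, with a log2 fold change of 0.55 (SE 0.109, adjusted p = 0.00340). Slc3a2, which encodes the CD98 heavy chain that brings LAT1 to the membrane, had 236, 239 and 252 CPM with butyrate and 182, 206 and 198 CPM in control. Its groups did not overlap either, and its rise was smaller, at 0.31 (SE 0.0811, adjusted p = 0.0123).

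Slc1a5 (gene 20514, chr7:16781334-16798274) encodes ASCT2, an exchanger of glutamine and other neutral amino acids. It had 625, 546 and 551 CPM in the butyrate libraries and 404, 407 and 398 CPM in the control libraries, a log2 fold change of 0.51 (SE 0.0852, adjusted p = 0.00146). All butyrate values were above all control values. The sodium-coupled carriers of glutamine and alanine moved the other way. Slc38a1, which encodes SNAT1, had 368, 367 and 359 CPM with butyrate, against 456, 503 and 486 CPM in control, and fell by 0.40 on the log2 scale (SE 0.0782, adjusted p = 0.00315). Slc38a2, which encodes SNAT2 (gene 67760, chr15:96687392-96699728), had 215, 206 and 214 CPM with butyrate and 299.7, 286 and 276 CPM in control. It fell by 0.44 (SE 0.0759, adjusted p = 0.00169), and neither gene's groups overlapped. Both genes lie on chromosome 15.

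The remaining carriers gave no call. Slc7a1, the arginine and lysine carrier gene, averaged 285 ± 14.2 CPM with butyrate and 283 ± 27.7 CPM in control (SD, n = 3), and Slc7a6, of the same family, 96.8 ± 6.53 and 98.6 ± 8.88 CPM. Slc43a1, which encodes the neutral amino acid carrier LAT3, stood low at 4.07, 4.47 and 3.14 CPM with butyrate and 0.900, 2.78 and 3.41 CPM in control, and its groups overlapped (adjusted p = 0.187). Slc7a11, the cystine carrier gene and a classical ATF4 target, did not pass the filter: it had 0, 3 and 4 counts in the butyrate libraries and 3, 3 and 17 counts in the control libraries. Summed over the 9 carriers, the level was 2388, 2349 and 2430 CPM with butyrate and 2059, 2295 and 2152 CPM in control, a sum in which higher and lower carriers both take part.

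**Figure D2:**
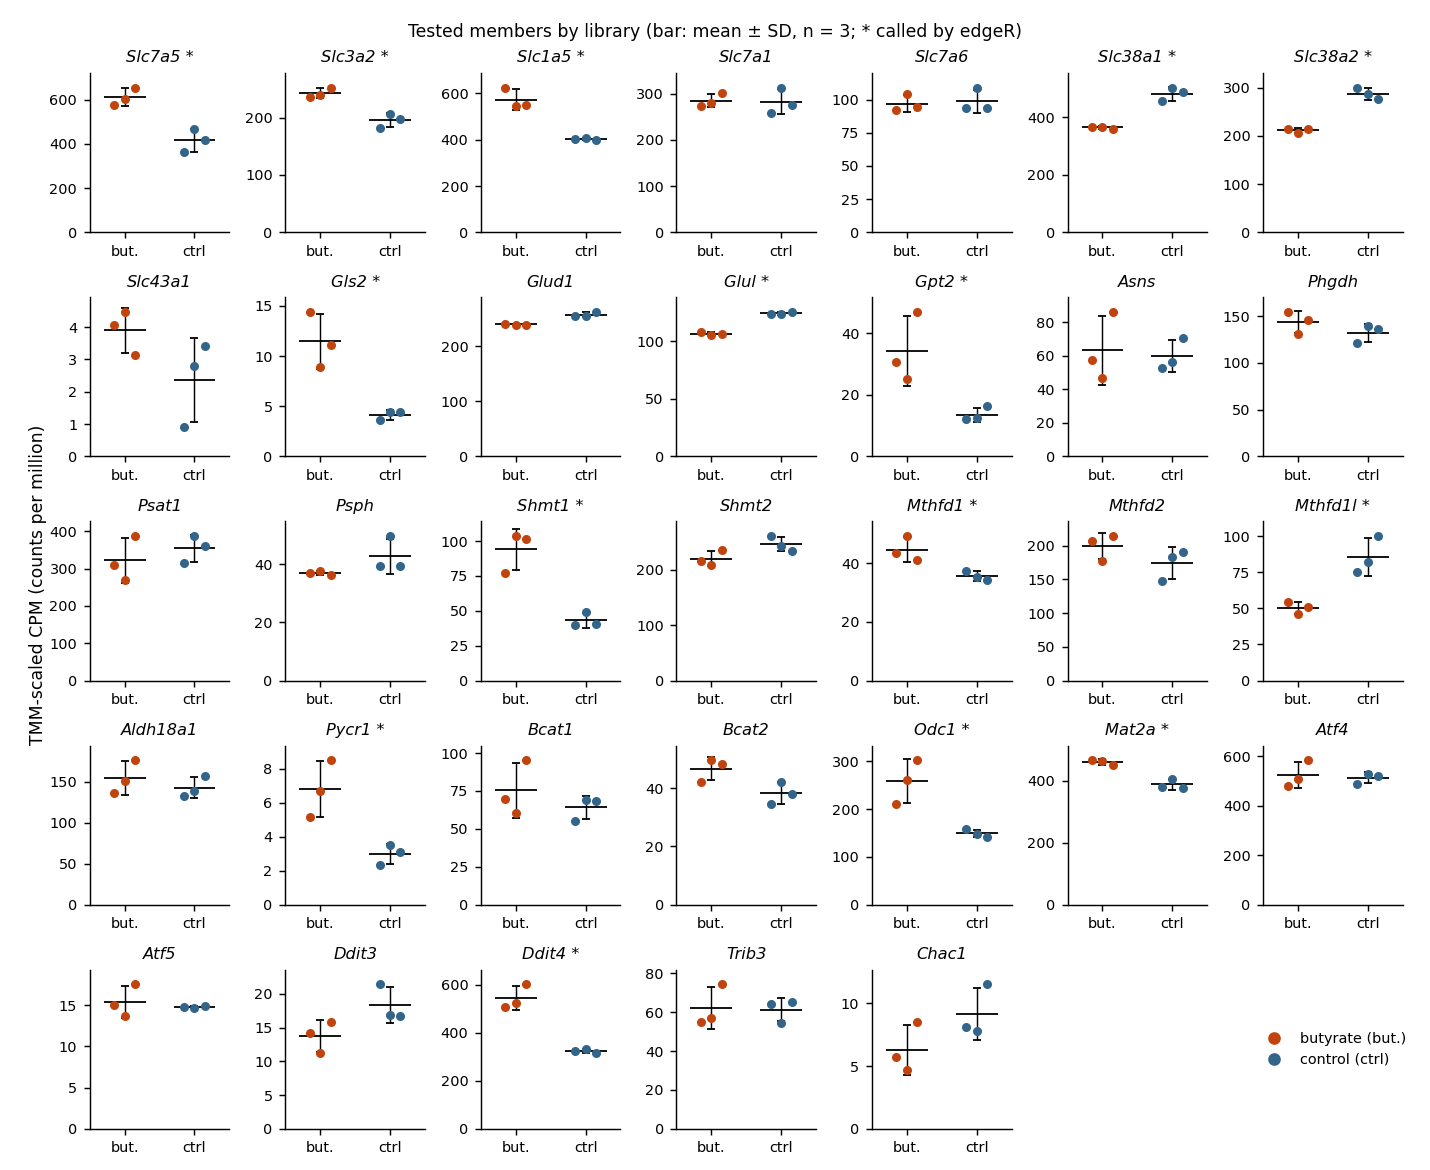
TMM-scaled CPM of each tested member in each library (points; left, 3 butyrate libraries; right, 3 control libraries; replicates 1 to 3 from left to right), with the group mean and SD as a black bar. Each panel has its own axis from 0, and an asterisk marks a call by edgeR. Slc7a5, Slc1a5, Gls2, Gpt2, Shmt1, Odc1 and Ddit4 have every butyrate library above every control library.

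Among the genes of glutamine, glutamate and asparagine metabolism, the rises were in enzymes that stood at low levels. Gls2, which encodes a glutaminase best known from liver (gene 216456, chr10:128194635-128210004), had 14.4, 8.94 and 11.1 CPM in the butyrate libraries and 3.60, 4.45 and 4.38 CPM in the control libraries. The groups did not overlap, and its log2 fold change of 1.46 (SE 0.235, adjusted p = 0.00121) was the highest among the 33 members. The gene Spryd4 overlaps Gls2 and also rose, by a log2 fold change of 0.53 (adjusted p = 0.00872), and reads of the overlap cannot be assigned between them because no source used here gives the strand setting. Gpt2, the mitochondrial alanine aminotransferase gene (gene 108682, chr8:85492576-85528902), had 30.7, 25.1 and 46.9 CPM with butyrate and 12.1, 12.4 and 16.2 CPM in control. Butyrate replicate 3 was the highest, and all butyrate libraries exceeded all control libraries (log2 fold change 1.33, SE 0.239, adjusted p = 0.00213).

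Glul, the glutamine synthetase gene, had 108, 106 and 106 CPM with butyrate and 123, 124 and 126 CPM in control. The groups were tight and did not overlap, and the gene fell by 0.22 on the log2 scale (SE 0.0708, adjusted p = 0.0304). Its call ended when any single library other than butyrate replicate 1 was left out: the adjusted p was 0.0753 and 0.0649 without butyrate replicates 2 and 3, and 0.0743, 0.0823 and 0.0944 without control replicates 1, 2 and 3. It also ended with upper quartile scaling (0.134) and DESeq2 (0.0933). Glud1, which encodes glutamate dehydrogenase, did not pass the test, at 241, 239.7 and 239.9 CPM with butyrate and 255, 255 and 263 CPM in control (adjusted p = 0.279). Asns, the asparagine synthetase gene, varied more within the groups than between them, with 57.1, 46.4 and 86.1 CPM with butyrate and 52.7, 56.4 and 70.4 CPM in control (adjusted p = 0.791).

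The pathway that makes serine from a glycolytic intermediate gave no calls in its 3 genes. Phgdh, the first and committed enzyme, averaged 144 ± 11.9 CPM with butyrate and 132 ± 9.38 CPM in control (SD, n = 3, edgeR adjusted p = 0.306). Psat1, the aminotransferase of the pathway, had 309, 270.1 and 388 CPM with butyrate and 315, 387 and 361 CPM in control (adjusted p = 0.447). Psph, the final phosphatase, had 36.8, 37.7 and 36.2 CPM with butyrate and 39.2, 49.7 and 39.3 CPM in control, groups that did not overlap although the gene was not called (adjusted p = 0.167). The log2 fold changes of the 3 genes ran from -0.21 to 0.12.

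Among the 6 members of folate-bound one-carbon metabolism, the cytosolic genes Shmt1 and Mthfd1 were called higher and the mitochondrial gene Mthfd1l lower. Mitochondrial genes of glycine cleavage, which are not members and are given below, were called higher. Shmt1, which encodes the cytosolic serine hydroxymethyltransferase (gene 20425, chr11:60788897-60811265), had 77.3, 104 and 102 CPM in the butyrate libraries and 40.0, 49.3 and 40.4 CPM in the control libraries. The groups were far apart, with a log2 fold change of 1.12 (SE 0.137, adjusted p = 0.000316). Shmt2, the mitochondrial enzyme, was not called, at 215, 208 and 235 CPM with butyrate and 260.5, 243 and 234 CPM in control (adjusted p = 0.141). Mthfd1, the cytosolic enzyme with 3 activities that interconverts the folate forms, had 43.5, 49.4 and 41.2 CPM with butyrate and 37.4, 35.2 and 34.2 CPM in control, a log2 fold change of 0.33 (SE 0.103, adjusted p = 0.0287). Its groups did not overlap, but the call ended without butyrate replicate 2 (adjusted p = 0.0980), control replicate 2 (0.0768) or control replicate 3 (0.0847), with no filter (0.0602) and with DESeq2 (0.0759).

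Mthfd1l, which encodes the mitochondrial enzyme that releases formate (gene 270685, chr10:3972892-4167081), had 54.4, 46.1 and 51.0 CPM with butyrate and 74.9, 82.0 and 100.1 CPM in control. No butyrate library reached the lowest control library, and the gene fell by 0.76 on the log2 scale (SE 0.123, adjusted p = 0.00122), the lowest value among the 33 members. Mthfd2, the mitochondrial dehydrogenase and cyclohydrolase that is strongly induced in activated T cells, had 207, 178 and 214 CPM with butyrate and 148, 184 and 191 CPM in control, and its groups overlapped (adjusted p = 0.203). Aldh1l2, a mitochondrial enzyme that oxidizes formyl-folate, did not pass the filter, with 1, 1 and 2 counts in the butyrate libraries and 2, 5 and 7 counts in the control libraries.

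The balance between the arms was also read as a ratio of counts within each library, which does not depend on the scaling between libraries. Shmt2 held 2.78, 2.01 and 2.31 counts per Shmt1 count in the butyrate libraries and 6.51, 4.92 and 5.79 in the control libraries. The ratio was 2.43-fold lower with butyrate, a log2 difference of -1.28, and the groups did not overlap. An exact permutation test (two-sided) gave p = 0.1, and no smaller value is possible with 3 libraries in each group. Mthfd2 over Mthfd1 did not separate the groups, at 4.75, 3.60 and 5.19 with butyrate and 3.94, 5.20 and 5.58 in control (exact permutation p = 0.5). Slc3a2 over Slc7a5, the chains of the LAT1 complex, was 0.411, 0.398 and 0.386 with butyrate and 0.501, 0.441 and 0.472 in control, so the ratio was lower in every butyrate library than in every control library (log2 difference -0.24, exact permutation p = 0.1). For the glutamine carriers that fell, the ratio of Slc38a2 to Slc38a1 overlapped between the groups, at 0.584, 0.560 and 0.596 with butyrate and 0.657, 0.569 and 0.567 in control (exact permutation p = 0.8). The ratio of mitochondrial Bcat2 to cytosolic Bcat1 was 0.604, 0.819 and 0.506 with butyrate and 0.627, 0.613 and 0.559 in control (exact permutation p = 0.9). Of the 5 ratios compared, 2 gave groups that did not overlap, and with 5 tests and a smallest p of 0.1 none can pass a correction.

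**Figure D3:**
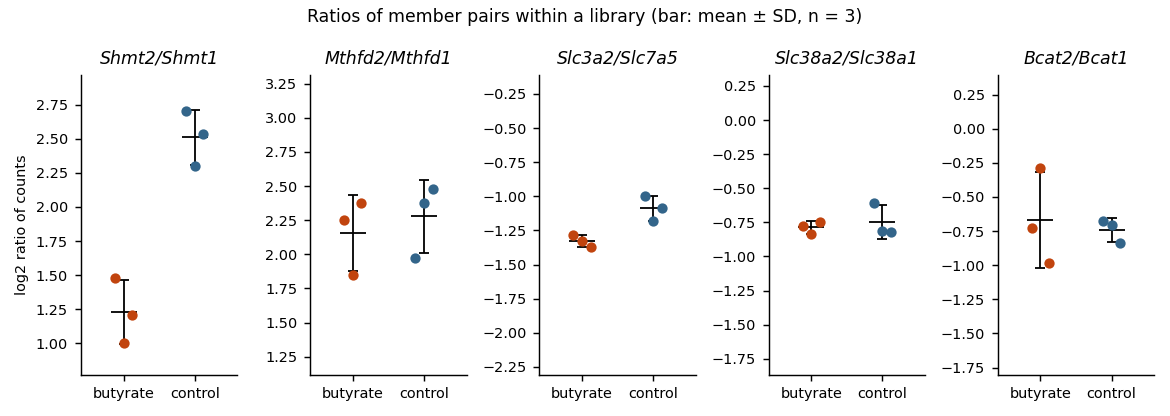
Log2 ratio of the counts of paired members within each library (points; left, 3 butyrate libraries; right, 3 control libraries), with mean and SD as a bar. All panels span the same range of 2.2 log2 units. The groups are apart for Shmt2/Shmt1 (means 1.23 with butyrate and 2.51 in control) and for Slc3a2/Slc7a5 (-1.33 and -1.09), and overlap in the other 3 panels.

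Genes of proline, polyamine and methionine metabolism rose where they were called. Odc1, which encodes ornithine decarboxylase, the first enzyme of polyamine synthesis (gene 18263, chr12:17544808-17551502), had 211, 262 and 303 CPM in the butyrate libraries and 158, 149 and 142 CPM in the control libraries. Its groups did not overlap (log2 fold change 0.79, SE 0.128, adjusted p = 0.00126). Pycr1, which encodes a mitochondrial pyrroline-5-carboxylate reductase that completes proline synthesis (gene 209027, chr11:120638998-120643748), stood low, at 5.18, 6.71 and 8.50 CPM with butyrate and 2.34, 3.52 and 3.08 CPM in control. The groups did not overlap, and the gene rose by 1.18 on the log2 scale (SE 0.275, adjusted p = 0.00759). Aldh18a1, the enzyme that opens proline synthesis from glutamate, averaged 155 ± 20.3 CPM with butyrate and 143 ± 12.9 CPM in control (SD, n = 3) and was not called.

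Mat2a, which encodes the enzyme that makes S-adenosylmethionine, had 468, 465 and 451 CPM with butyrate and 382, 408 and 377 CPM in control. The groups did not overlap and the rise was small (log2 fold change 0.25, SE 0.0774, adjusted p = 0.0281). The call ended without butyrate replicate 1 (adjusted p = 0.0529), butyrate replicate 2 (0.0719), control replicate 1 (0.0732) or control replicate 3 (0.0890), and with no filter (0.0757). Bcat2, the mitochondrial branched-chain aminotransferase gene, had 42.2, 49.7 and 48.2 CPM with butyrate and 34.7, 42.3 and 38.1 CPM in control, with an adjusted p of 0.0630. With the replicate number as a block it was called higher at the same log2 fold change of 0.28 (adjusted p = 0.0232), and it was also called without butyrate replicate 1 (0.0367), with upper quartile scaling (0.0248) and with the filter of 5 CPM (0.0454). Bcat1, the cytosolic enzyme gene, had 69.9, 60.7 and 95.3 CPM with butyrate and 55.5, 69.0 and 68.3 CPM in control, and was not called.

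Of the 6 genes of the ATF4 and stress group, 1 was called higher and 5 were not called. Atf4 (gene 11911, chr15:80255184-80257545) had 481, 506 and 584 CPM in the butyrate libraries and 489, 530 and 521 CPM in the control libraries, with overlapping groups and a log2 fold change of 0.03 (SE 0.0957, adjusted p = 0.821). Its sign turned to -0.06 without butyrate replicate 3. Atf5, a related factor, averaged 15.4 ± 1.94 CPM with butyrate and 14.8 ± 0.137 CPM in control (SD, n = 3), and its sign turned to -0.04 without that same library. Trib3, a pseudokinase gene that ATF4 and CHOP induce, had 55.1, 56.9 and 74.5 CPM with butyrate and 64.1, 54.5 and 65.5 CPM in control (adjusted p = 0.929). These 3 genes gave log2 fold changes from 0.02 to 0.06, all within 1 standard error of 0.

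Ddit3, which encodes the pro-apoptotic factor CHOP, had 14.2, 11.2 and 15.9 CPM with butyrate and 21.4, 16.9 and 16.7 CPM in control. All butyrate libraries lay below all control libraries, but the gene was not called (log2 fold change -0.41, SE 0.172, adjusted p = 0.0780). With the replicate number as a block it was called lower at -0.41 (adjusted p = 0.0433). The gene Mbd6 overlaps it and fell by 0.69 on the log2 scale (adjusted p = 0.00262). Mars1 also overlaps Ddit3 and was not called, at a log2 fold change of 0.05 (adjusted p = 0.813). Chac1, which encodes a glutathione-degrading enzyme, had 5.73, 4.64 and 8.50 CPM with butyrate and 8.10, 7.79 and 11.5 CPM in control, and was not called (-0.55, adjusted p = 0.125). It was called lower with the block (-0.54, adjusted p = 0.0294) and without butyrate replicate 3 (-0.82, adjusted p = 0.0397). Ddit4 was the exception among the 6 genes. It encodes REDD1, a stress-induced inhibitor of the growth kinase complex mTORC1 (gene 74747, chr10:59949675-59951770), and had 508, 523 and 603 CPM with butyrate against 323, 334 and 318 CPM in control. Its groups were far apart (log2 fold change 0.75, SE 0.0909, adjusted p = 0.000318).

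Replicates of the butyrate group differed among themselves in these genes. Butyrate replicate 3 was the highest of the 3 butyrate libraries for all 6 ATF4 and stress genes, and for 18 of the 33 tested members, where this held for 31.6% of all tested genes. Control replicate 2 was the highest control library for 17 of 33 members, against 31.2% of all tested genes. This count was made after the values were seen and has no test. Butyrate replicate 3 also held the highest summed erythroid marker level, 24.6 CPM, and the lowest summed B cell marker level, 158 CPM. The part of these cells in the pattern was not tested.

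**Figure D4:**
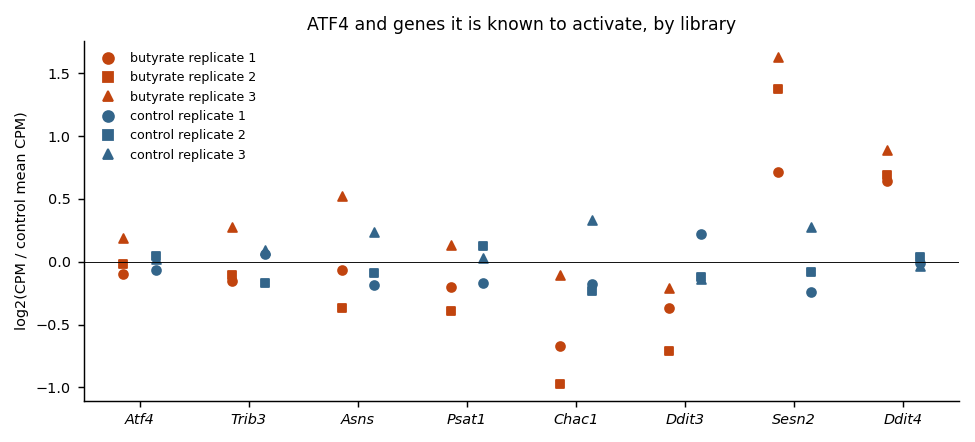
Log2 of the CPM in each library over the mean CPM of the control libraries, for Atf4 and 7 genes that ATF4 is known to activate, chosen after their values were seen (orange, butyrate; blue, control; circles, squares and triangles, replicates 1, 2 and 3). Butyrate replicate 3 is the highest butyrate library for each gene shown, but not for every ATF4 target. Among targets not shown, Ndrg1 had 152, 139 and 116 CPM and Lonp1 89.0, 90.3 and 78.4 CPM in butyrate replicates 1, 2 and 3. Sesn2 and Ddit4 have every butyrate library above every control library, and Chac1 and Asns overlap.

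The promoters of members were searched for the core of the element that ATF4 binds with C/EBP factors, TGATGNAA on either strand, in RefSeq windows of GRCm38.p6 that run from 250 bases before to 50 bases after a gene's start. A window was at hand for 30 of the 35 members. The core was found in 5 of these 30, Asns, Trib3, Chac1, Pycr1 and Slc7a11, and in 4.51% of the 27025 genes with a window (3.97% of 32851 windows). A match describes the letters of the window and does not show binding. The windows of Asns, Trib3, Chac1 and Pycr1 are printed because they carry the same core while the calls of their genes differed. Of the 4, Pycr1 was called higher and the others were not called. A difference in response between these genes was not tested. The 8 bases of the core are in capitals, and each window reads 5′ to 3′ on its gene's strand. They are Asns at chr6:7693160-7693459 on the minus strand, Trib3 at chr2:152344011-152344310 on the minus strand, Chac1 at chr2:119350992-119351291 on the plus strand and Pycr1 at chr11:120643699-120643998 on the minus strand.
Asns: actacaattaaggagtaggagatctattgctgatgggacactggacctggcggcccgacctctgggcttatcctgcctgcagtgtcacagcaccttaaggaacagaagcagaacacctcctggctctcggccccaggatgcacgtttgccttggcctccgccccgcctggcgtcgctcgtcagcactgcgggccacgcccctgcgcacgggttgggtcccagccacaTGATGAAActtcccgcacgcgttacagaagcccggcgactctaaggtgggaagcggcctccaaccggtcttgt
Trib3: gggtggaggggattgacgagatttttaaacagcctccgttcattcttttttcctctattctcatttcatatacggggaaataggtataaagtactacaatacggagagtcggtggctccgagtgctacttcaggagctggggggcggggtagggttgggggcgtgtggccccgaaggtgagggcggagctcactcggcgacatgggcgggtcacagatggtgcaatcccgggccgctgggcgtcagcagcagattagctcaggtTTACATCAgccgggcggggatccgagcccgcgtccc
Chac1: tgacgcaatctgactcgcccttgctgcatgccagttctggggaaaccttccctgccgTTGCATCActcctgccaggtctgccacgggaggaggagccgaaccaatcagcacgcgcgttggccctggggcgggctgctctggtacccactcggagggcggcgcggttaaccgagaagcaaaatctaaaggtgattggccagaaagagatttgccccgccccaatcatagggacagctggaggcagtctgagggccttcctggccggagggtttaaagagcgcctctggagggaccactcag
Pycr1: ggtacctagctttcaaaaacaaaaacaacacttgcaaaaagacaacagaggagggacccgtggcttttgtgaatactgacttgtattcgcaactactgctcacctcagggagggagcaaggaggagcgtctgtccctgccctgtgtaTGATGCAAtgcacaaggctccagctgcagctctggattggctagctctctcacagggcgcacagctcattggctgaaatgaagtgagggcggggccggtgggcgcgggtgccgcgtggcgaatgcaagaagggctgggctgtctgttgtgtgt

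The core began 23 bases before the start in Asns and 103 bases before it in Pycr1, both on the gene's strand. In Chac1 it began 193 bases before the start and in Trib3 at base 15 after it, both on the opposite strand, where the letters printed are the reverse complement. The MYC and MAX E-box, CACGTG, was found in the windows of Slc43a1 and Aldh18a1, 2 of 30 members, and in 8.09% of genes with a window, and it overlapped no ATF4 core there. Neither of these genes was called.

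Levels of different genes were compared per kilobase of exon, with lengths from the union of exons in GENCODE M21, and the values of this paragraph are CPM per kilobase. Ddit4 was the most abundant member with butyrate, at 310.4 ± 29.0, followed by Atf4 at 304 ± 31.3 (SD, n = 3), a difference within their spread. In control Atf4 led with 298 ± 12.3 and Ddit4 stood at 185 ± 4.77, well apart. Slc1a5 came next in the butyrate libraries and after Ddit4 in the control libraries, with 208 ± 16.03 with butyrate and 146 ± 1.71 in control, and Slc7a5 had 173 ± 11.4 with butyrate and 119 ± 14.9 in control. Odc1 held rank 6 with butyrate at 117 ± 20.9 and rank 11 in control at 67.7 ± 3.43. Shmt1 held rank 18 with butyrate and rank 25 in control, at 32.9 ± 5.12 with butyrate and 15.1 ± 1.85 in control. Gls2 and Pycr1, although changed at least 2-fold, stayed at the low end, with 4.46 ± 1.07 and 1.80 ± 0.442 with butyrate and 1.61 ± 0.184 and 0.792 ± 0.159 in control.

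Other genes of the same pathways were taken from 9 lists with 182 matched entries, of which 177 were different genes and 164 passed the filter. Of these 164, 42 were higher and 26 lower, or 41.5% called against the 45.9% of all tested genes. The lower count was 17 without control replicate 3 and 17 with upper quartile scaling. The list medians ran from -0.11 to 0.29 on the log2 scale. No list was tested as a set.

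Large changes were found in several of these lists, the largest in Aldh5a1 of glutamine and glutamate use, described below. Genes that sense amino acids or act in the stress response beside ATF4 are given first. Castor1, which encodes an arginine sensor of mTORC1, and its relative Castor2 were higher with log2 fold changes of 2.66 and 1.08. Castor1 had 74.3, 48.0 and 56.9 CPM in the butyrate libraries and 11.5, 8.53 and 8.27 CPM in the control libraries (adjusted p = 4.49e-05), and no libraries overlapped. Sesn2, which encodes a leucine sensor and is an ATF4 target, had 45.5, 72.0 and 85.7 CPM with butyrate and 23.4, 26.2 and 33.6 CPM in control (log2 fold change 1.29, adjusted p = 0.00199). Sesn1, its relative, fell by 1.03, and Flcn, a regulator of the Rag GTPases, by 0.79 on the log2 scale. Rragd, which encodes one of these GTPases and was chosen after its values were seen, rose by 2.32 (adjusted p = 0.000627). Of 34 tested genes of amino acid sensing by mTORC1, 7 were higher and 8 lower, and 5 were lower without control replicate 3.

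In the integrated stress response, 4 of 20 control genes were higher and 6 lower, with 7 higher under the replicate block and 3 lower without control replicate 3. With upper quartile scaling 10 were higher and 3 lower, so that the balance between directions depended on the scaling. Atf3, a stress-induced transcription factor gene, had 45.5, 44.0 and 66.7 CPM with butyrate and 9.001, 9.09 and 10.4 CPM in control, with the groups far apart (log2 fold change 2.45, adjusted p = 4.80e-05). Cebpb, a partner of ATF4, rose by 1.30. Eif2ak2, the gene of the RNA-sensing eIF2 kinase PKR, and Eif2b5, a subunit gene of the eIF2B exchange factor, fell by 0.86 and 0.41. Ppp1r15a, which encodes the phosphatase subunit GADD34 that ends the response and was chosen after its values were seen, rose by 0.90. Of 16 other ATF4 targets tested, 5 were higher and 4 lower, with 3 higher with no filter or without any one butyrate replicate and 2 without control replicate 1 or 2. Beside Sesn2, Ndrg1 rose by 0.74, while Stc2, a secreted glycoprotein gene, and Nfe2l2, which encodes the antioxidant factor NRF2, fell by 1.04 and 0.75. Over all tested genes 23.5% were higher and 22.5% lower.

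Of 20 cytosolic aminoacyl-tRNA synthetase genes, a family that ATF4 activates in many cells, 3 were higher and 1 lower. Under the block, with upper quartile or total-count scaling and with the filter of 5 CPM, 5 were higher. Without control replicate 1 the lower count was 2, and it was 0 with upper quartile scaling and without butyrate replicate 2 or 3 or control replicate 2. Dars and Rars, for aspartate and arginine, rose by 0.63 and 0.31. Vars, for valine, fell by 0.32 (adjusted p = 0.0244), a call that ended without butyrate replicate 2 (0.0555), butyrate replicate 3 (0.0682) or control replicate 2 (0.0926) and with upper quartile scaling (0.0711).

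**Figure D5:**
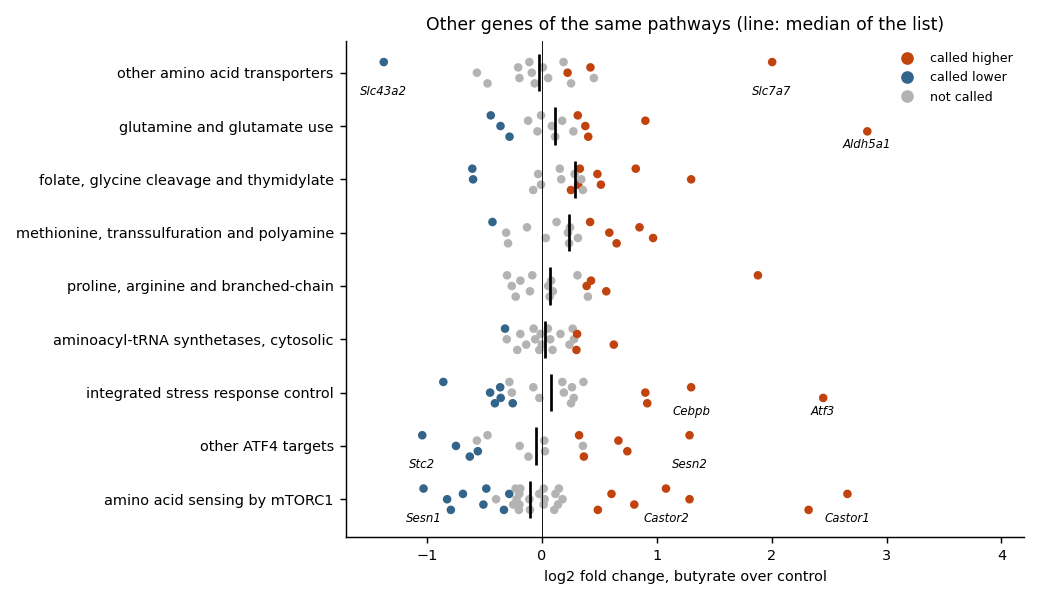
Log2 fold change of butyrate over control for each tested gene of the 9 other lists (points; orange called higher, blue called lower, grey not called), with the median of each list as a vertical line. Genes named by rule with a change near or above 1 are labelled. Calls fall on both sides of 0 in most lists, and the medians lie between -0.11 and 0.29.

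Neighbouring metabolic steps showed calls in both directions. Of 16 tested further carriers, 3 were higher and 1 lower (5 and 2 under the block, 6 higher with upper quartile scaling, and 2 lower without butyrate replicate 3). Slc43a2, the gene of the neutral amino acid carrier LAT4, had 44.2, 42.1 and 37.5 CPM with butyrate and 117, 98.3 and 107 CPM in control, a fall by 1.38 (adjusted p = 4.26e-05) with the groups far apart. Slc7a7, a partner of the CD98 heavy chain, rose but stood low (2.89 ± 0.464 CPM with butyrate and 0.705 ± 0.200 CPM in control), and Slc25a15, the mitochondrial ornithine carrier gene, rose by 0.42. Of 15 genes of glutamine and glutamate use, 5 were higher and 3 lower, with 3 higher without control replicate 1 or 3, and 1 lower with upper quartile scaling, with DESeq2, or without butyrate replicate 2 or control replicate 1 or 3. Aldh5a1, which encodes succinic semialdehyde dehydrogenase, had 15.9, 21.3 and 15.5 CPM with butyrate and 2.16, 2.41 and 2.76 CPM in control (log2 fold change 2.83, adjusted p = 4.80e-05). Got2, the mitochondrial aspartate aminotransferase gene, rose by 0.40, and Gclc, the limiting enzyme gene of glutathione synthesis, fell by 0.44. Gfpt1, the gene that opens hexosamine synthesis, fell by 0.28 (adjusted p = 0.0269), and its call ended without butyrate replicate 1 (0.0627) or 2 (0.0825) or control replicate 1 (0.0684) or 3 (0.112), with upper quartile scaling (0.0921) and with DESeq2 (0.0622).

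Of 17 tested folate, glycine cleavage and thymidylate genes, 7 were higher and 2 lower, with 4 higher without butyrate replicate 2 or control replicate 3. Gart, an enzyme gene of purine synthesis that uses formyl-folate, rose by 0.82, and the serine racemase gene Srr by 0.51. Tyms, which encodes thymidylate synthase, and Mtr, methionine synthase, fell by 0.60 each on the log2 scale. The mitochondrial glycine cleavage genes Amt and Gcsh, chosen after their values were seen, rose by 1.30 and 0.48 (edgeR adjusted p = 0.0119 and 0.0157). For Gcsh the adjusted p reached 0.0559 with a library left out. Of 15 genes of methionine, transsulfuration and polyamine metabolism, 5 were higher and 1 lower (8 and 2 under the block, and 0 lower with upper quartile scaling, with the filter of 5 CPM, or without butyrate replicate 1 or 2 or control replicate 3). Ahcy, which clears S-adenosylhomocysteine, and Mpst, a sulfurtransferase gene, rose by 0.65 and 0.85. Mat2b, the regulatory partner of Mat2a, fell by 0.43 (adjusted p = 0.0421), the single lower gene of that list, and the call ended without butyrate replicate 1 (0.114) or 2 (0.126) or control replicate 2 (0.101) or 3 (0.159), with upper quartile scaling (0.0881) and with the filter of 5 CPM (0.0565). Beside Odc1, the polyamine synthesis gene Srm, chosen after its values were seen, had 99.1, 198 and 133 CPM with butyrate and 69.7, 80.5 and 69.6 CPM in control, a rise by 0.97 (adjusted p = 0.00634) with no overlap. Of 16 genes of proline, arginine and branched-chain metabolism, 4 were higher and 0 lower, with 2 higher without butyrate replicate 3 or control replicate 3 and 1 lower without butyrate replicate 1. Pycrl, which like Pycr1 encodes a pyrroline-5-carboxylate reductase, rose by 0.39 on the log2 scale.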

How the data were processed

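RNA of 3 butyrate and 3 control cultures was prepared with Trizol and an Illumina TruSeq kit, per the labels' protocols. The authors deposited raw read counts per gene, with genes given by number. Per the submitters' processing notes, the tools were CASAVA, TopHat, Picard, featureCounts, Subread and edgeR with the build mm10. Versions, strand setting and the treatment of shared reads are not stated there, so values of the 16 members that overlap another gene are uncertain. Names and coordinates came from the RefSeq table of GRCm38.p6, the assembly behind mm10 (25275 of 27179 numbers named). Unnamed numbers held 0.965% to 1.20% of a library's counts and stayed in the tests.

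Butyrate was compared with control by edgeR 4.0.16 (R 4.3.3): TMM, filterByExpr, the quasi-likelihood F test and Benjamini-Hochberg adjustment over 11740 genes. A standard error is |log2 fold change| over the root of F. Ratios used counts plus 0.5. The fit was also run on simulated counts, in which a small set of genes changed by at least 2-fold and samples were not paired. That run does not cover the smaller changes called here. Alternatives were scaling by RLE, by upper quartile or by total count, no filter, a filter of 5 CPM in 3 or more libraries, limma voom (3.58.1), DESeq2 1.42.0, robust edgeR, a replicate block and each library left out.

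Pairs of libraries within a group exceeded sampling noise, with a chi-square of 5.43 to 10.6 per degree of freedom. No label ties replicates to separate mice or cultures, so p-values cover only the spread between these samples, possibly technical. Limits from counts cover counting error only. Same-numbered butyrate and control libraries deviated together from their group means. The correlation over genes was 0.362, 0.197 and 0.353 for numbers 1, 2 and 3, and -0.301 to -0.0750 between different numbers. A pairing by number is thus seen in the data and is not given by the labels. The main fit and the permutation tests left this pairing out, and only the replicate block and the sign-flip test used it. Members called were 12 higher and 6 lower with the block, against 11 and 4 in the main fit. All 35 members were named, and of each other list up to 2 called genes per direction with the smallest p. Members and lists were chosen with earlier results of these data known. In the other lists 182 of 183 entries matched a gene number.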

Additional observations from a re-analysis of the deposited data

How the results depend on the processing

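Of the 15 called members, 12 kept their direction and call under all 15 alternatives, and Glul, Mthfd1 and Mat2a lost the call in some. None of the 15 turned direction. Of the 18 members not called, Bcat2, Ddit3 and Chac1 were called under some alternatives, among them the replicate block, at log2 fold changes of 0.28, -0.41 and -0.54; the block changed no other member's call and gave 12 higher and 6 lower. For the Shmt2 to Shmt1 ratio the paired sign-flip p was 0.25, the smallest that 3 pairs can give. The sign of 6 uncalled members turned under some settings. With no filter, Slc7a1 stood at -0.026, Atf4 at -0.0083 and Trib3 at -0.021. Slc7a6 was at 0.057 with upper quartile scaling and 0.0021 with the filter of 5 CPM. Leaving out each library gave -0.039 to 0.096 for Slc7a1, -0.083 to 0.056 for Slc7a6, -0.21 to 0.26 for Asns, -0.057 to 0.087 for Atf4, -0.043 to 0.14 for Atf5 and -0.13 to 0.095 for Trib3. It gave log2 differences of -0.27 to 0.034 for Mthfd2/Mthfd1, -0.076 to 0.031 for Slc38a2/Slc38a1 and -0.12 to 0.23 for Bcat2/Bcat1. The lower count in the other lists was 17 with upper quartile scaling and 17 to 23 over the fits without a library. The cause of these changes was not tested. Of 68 called genes in the other lists, 26 lost the call in at least 1 alternative and 0 turned direction. Differences in Slc7a11 and Aldh1l2 were not detectable at this depth.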

Other observations

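A further ratio within the one-carbon arms was formed after the values were seen and has no test. Mthfd1l, the mitochondrial formate enzyme gene, held 1.25, 0.934 and 1.24 counts per count of its cytosolic relative Mthfd1 in the butyrate libraries and 1.998, 2.32 and 2.92 in the control libraries. All butyrate values lay below all control values, a log2 difference of -1.08.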
